A study of Mus musculus with 22 samples.

Results

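Narrow reproducible promoter regions are short stretches of chromatin carrying acetylated lysine 27 of histone H3 (H3K27ac) at gene starts. They were chosen by 4 properties of the H3K27ac peak lists of 3 libraries. Overlapping peaks were first united into regions on chromosomes 1 to 19, and a region was kept if it had a peak in each of the 3 libraries and was shorter than 500 bp. It also had to lie within 2.5 kb of a protein-coding transcription start site (TSS), and regions within 1 kb of a pair of oppositely transcribed protein-coding genes whose starts lie within 1 kb of each other were dropped. Of 34063 united regions, 13977 had a peak in all 3 libraries, 10664 of these were also close to a TSS, 1955 were also narrow, and 1730 remained after the 225 at gene pairs were dropped. The 1730 regions are 5.08% of all united regions and were assigned to 1611 genes by the TSS nearest to the strongest summit, which is 7.74% of the 20807 autosomal protein-coding genes. Because width, recurrence and position selected them, their fold enrichment and width are given as a description.

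The 3 libraries, replicates 1 to 3, came from KL cells, bone marrow progenitors of the myeloid lineage sorted as Lin- cKit+ Sca1-. The donors were male C57BL/6 mice of genotype scl-Cre-ERT +; Bcorfl/y, in which tamoxifen (1 mg per day for 5 days, at 3 to 6 months of age) switches on a Cre recombinase driven by a stem cell enhancer of Tal1. The recombinase deletes exons 9 and 10 of the X-linked corepressor gene Bcor, and cells were taken 20 weeks later. Every library therefore carries the deletion (BcorΔE9-10), the other 19 of 22 samples of the series were not analysed here, and no comparison between genotypes was made. The depth estimated from the peak lists, under assumptions given with the processing, was 18.04, 18.92 and 19.26 M reads. At least 8 fragments stood at every summit in replicates 1 and 2 and at least 9 in replicate 3, so weaker acetylation is not represented. As a check of the label, 12 of 14 marker genes of myeloid progenitors had a reproducible promoter region of any width. Among all autosomal protein-coding genes, 8380 of 20807 had one. The counts were 0 of 7 for markers of mature granulocytes, 0 of 8 for non-haematopoietic tissues and 3 of 11 for lymphoid cells. The 1 of 8 for erythroid cells and megakaryocytes is given as a count only.

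Acetylation of H3K27 is deposited mainly by the acetyltransferases CBP and p300 on nucleosomes that flank active promoters and enhancers. At an active promoter the DNA at the start site itself is largely free of nucleosomes, so the mark usually stands on the nucleosomes to either side, the first of which downstream is well positioned. Many mammalian promoters lie in CpG islands, stretches rich in CG dinucleotides, and a minority carry a TATA box close upstream of the start. Promoter domains of H3K27ac often span several nucleosomes, whereas a region shorter than 500 bp has room for very few.

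The narrow regions took different places in relation to the start, shown first by the DNA at 8 of them. In the 6 sequences of the first set the region was isolated, meaning that no other region of all 3 libraries lay within 2.5 kb, and it overlapped the TSS. These are the strongest such regions with a CpG-rich centre (Swsap1, Oat, Zfp619) and without one (Nup85, Gm8113, Cdk14) whose printed window held at most 30 bases of annotated exon. Each runs 5′ to 3′ on the strand of the gene from 170 bp before the TSS to 30 bp after it, in GRCm38, and capitals mark matches on either strand to the 11 motif sets described further on.

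Swsap1 (chr9:21955585-21955784, plus strand): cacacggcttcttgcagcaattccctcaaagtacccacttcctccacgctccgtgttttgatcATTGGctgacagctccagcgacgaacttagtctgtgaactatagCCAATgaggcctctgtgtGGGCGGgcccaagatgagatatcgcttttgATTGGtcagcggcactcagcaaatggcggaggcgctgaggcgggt
Oat (chr7:132576369-132576568, minus strand): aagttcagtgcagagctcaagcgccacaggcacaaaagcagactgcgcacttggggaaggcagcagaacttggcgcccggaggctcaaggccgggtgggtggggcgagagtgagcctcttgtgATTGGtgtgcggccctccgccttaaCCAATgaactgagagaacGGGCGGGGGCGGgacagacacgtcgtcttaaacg
Zfp619 (chr7:39517596-39517795, plus strand): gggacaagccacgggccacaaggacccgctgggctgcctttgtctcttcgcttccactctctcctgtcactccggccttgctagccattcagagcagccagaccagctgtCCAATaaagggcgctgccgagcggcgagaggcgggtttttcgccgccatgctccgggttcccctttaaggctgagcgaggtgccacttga
Nup85 (chr11:115564264-115564463, plus strand): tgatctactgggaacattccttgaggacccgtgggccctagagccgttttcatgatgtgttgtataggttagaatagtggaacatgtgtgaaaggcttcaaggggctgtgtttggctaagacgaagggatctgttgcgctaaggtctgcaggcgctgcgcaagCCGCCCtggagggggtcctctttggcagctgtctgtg
Gm8113 (chr14:43925220-43925419, plus strand): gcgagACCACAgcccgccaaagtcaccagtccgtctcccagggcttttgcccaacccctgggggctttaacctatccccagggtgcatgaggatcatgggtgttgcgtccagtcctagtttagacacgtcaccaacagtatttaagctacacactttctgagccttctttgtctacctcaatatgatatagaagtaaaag
Cdk14 (chr5:5420283-5420482, minus strand): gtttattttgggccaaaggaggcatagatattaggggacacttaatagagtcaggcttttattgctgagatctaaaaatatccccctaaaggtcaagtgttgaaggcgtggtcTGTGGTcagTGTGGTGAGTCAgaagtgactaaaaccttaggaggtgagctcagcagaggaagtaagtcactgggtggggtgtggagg

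The other 2 sequences show the contrasting arrangement, in which the narrow region lay upstream of the TSS and another region lay downstream of the same TSS. They are the 200 bp around the strongest summit of the 2 strongest regions of that kind, at Maco1 and Sp4, and neither window touches an annotated exon.

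Maco1 (chr4:134853592-134853791, minus strand): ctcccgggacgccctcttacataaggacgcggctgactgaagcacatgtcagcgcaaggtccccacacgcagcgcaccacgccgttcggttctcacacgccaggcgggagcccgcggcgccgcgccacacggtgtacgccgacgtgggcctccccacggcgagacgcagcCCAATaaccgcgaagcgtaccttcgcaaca
Sp4 (chr12:118301720-118301919, minus strand): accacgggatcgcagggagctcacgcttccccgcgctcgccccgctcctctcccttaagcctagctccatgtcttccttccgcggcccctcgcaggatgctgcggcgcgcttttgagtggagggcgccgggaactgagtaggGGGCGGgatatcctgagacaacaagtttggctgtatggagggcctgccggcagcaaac

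The promoter windows of Swsap1, Oat and Zfp619 held 11, 14 and 13 CG dinucleotides, and those of Nup85, Gm8113 and Cdk14 held 7, 5 and 1. Swsap1, whose product works with the SWS1 protein in homologous recombination, had 3 matches to the NFY motif and 1 to the Sp1 motif. Oat, which encodes ornithine aminotransferase, had 2 matches to NFY and 2 adjoining matches to Sp1 close to the TSS. The window of Cdk14, a cyclin-dependent kinase gene, had 2 matches to the RUNX motif and 1 to AP-1 and was the poorest in GC, at 46.5%. The upstream window of Maco1 held 28 CG dinucleotides in 200 bases.

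Acetylation at the 1730 regions was low to moderate. Fold enrichment at the strongest summit, the ratio of fragments to the local background as the authors' peak caller gave it, had medians of 5.17, 5.29 and 6.10 in the 3 libraries in order of their number (mean 5.52 ± 0.504, SD, n = 3). The medians corresponded to 19, 20 and 24 fragments at the summit. The 7474 promoter regions of 500 bp or more that met the other conditions, called wider regions here, had medians of 8.88, 9.26 and 10.7 (9.62 ± 0.979, SD, n = 3). In contrast, the 4604 narrow promoter regions found in only 1 or 2 libraries had medians of 3.89, 3.82 and 4.23, and the 865 narrow reproducible regions far from a TSS had medians of 4.44, 4.38 and 5.11. The narrow promoter regions thus lay between the wider ones and the narrow regions of the other classes in each library, and their median exceeded 30.6%, 30% and 30.4% of all regions of 3 libraries. Their width had a median of 413 bp and ranged from 222 to 499 bp.

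**Figure D1:**
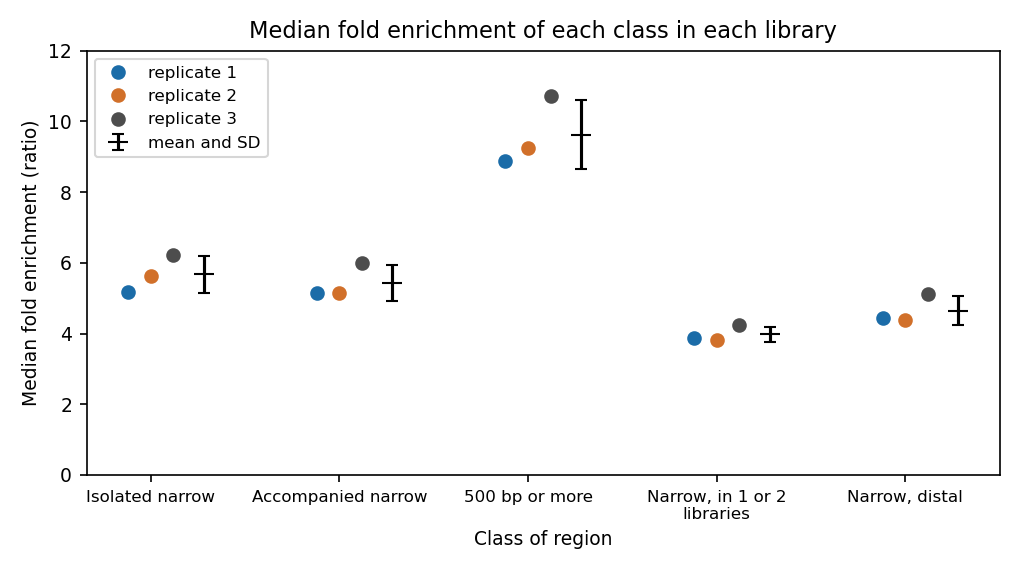
Median fold enrichment (ratio, y axis) of 5 classes of region (x axis); each point is 1 of the 3 libraries and the bar beside them is the mean with SD. The isolated and accompanied narrow promoter regions lie between 5.14 and 6.22 in every library, below the wider regions at 8.88 to 10.7.

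A low median left room for strong regions. The highest mean fold enrichment was found at Maco1, which encodes macoilin, a membrane protein of the endoplasmic reticulum. Its region (chr4:134853485-134853931, 447 bp) lay outside protein-coding genes with its strongest summit 346 bp upstream of the TSS, at fold enrichments of 35.2, 21.9 and 35.6 (135, 91 and 144 fragments). Replicate 2 was the lowest there, and the mean was 30.9 ± 7.81 (SD, n = 3). A wider region of 1609 bp began 105 bp away on the other side, with its strongest summit 250 bp downstream of the TSS and a mean fold enrichment of 20.9, so the narrow region was the stronger of the pair.

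At Zfp868, a zinc finger gene, the region overlapped the TSS with its summit 129 bp downstream in an intron, at 31.0, 27.5 and 31.6. At Sp4, the gene of a transcription factor of the Sp1 family, the summit lay 379 bp upstream, at 28.5, 22.5 and 34.7. Kat6b, a histone acetyltransferase gene, had 26.2, 23.2 and 30.1 at 169 bp downstream, in the untranslated part of the first exon. All 3 were stronger than their closest neighbouring region, whose mean fold enrichments were 4.52, 8.56 and 4.75. For Nr1h2, which encodes the oxysterol receptor LXR beta, the values were 25.6, 20.0 and 28.3, against a mean of 6.88 in a neighbour of 566 bp that lay 92 bp away.

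Of the 10 strongest regions, 3 were isolated. The first was at Pex7 (chr10:19907326-19907733, 408 bp), whose product imports a class of enzymes into peroxisomes. Its summit lay 97 bp downstream of the TSS in a coding exon, at fold enrichments of 28.8, 22.5 and 26.6 (132, 107 and 129 fragments). N6amt1, which encodes a methyltransferase, followed with 26.0, 24.2 and 20.8 at 98 bp downstream, and Swsap1 with 22.5, 20.8 and 23.8 at 138 bp downstream. The summits of the 3 libraries lay within 7 bp of each other at Pex7, 5 bp at N6amt1 and 6 bp at Swsap1. Actr2, a subunit of the actin-nucleating Arp2/3 complex, and Taf8, a subunit of the general transcription factor TFIID, completed the 10 with means of 21.3 ± 2.02 and 21.2 ± 2.79 (SD, n = 3).

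**Figure D2:**
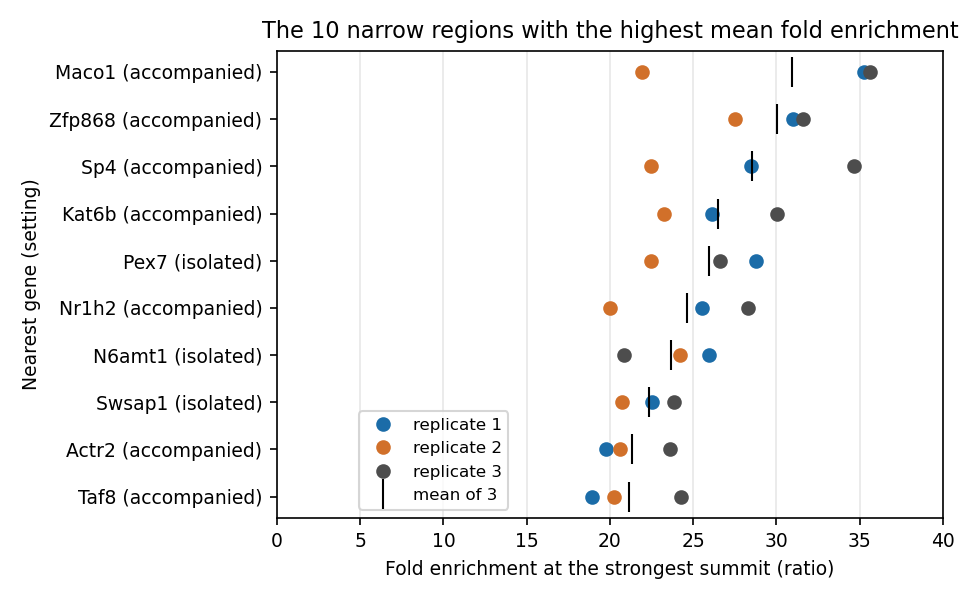
Fold enrichment (ratio, x axis) of the 10 narrow regions with the highest mean, named by the nearest gene (y axis); points are the 3 libraries and the black tick is their mean. The values run from 18.9 at Taf8 to 35.6 at Maco1, and Pex7, N6amt1 and Swsap1 are the isolated regions.

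The 5 weakest regions gave a different picture of position. They were assigned to Calr, the calreticulin gene (2.68, 2.5 and 3.28), and Ppp1cb, a catalytic subunit of protein phosphatase 1 (3.00, 3.00 and 2.62). Next came Chml (2.70, 3.00 and 2.95), Stk38l, a kinase gene (3.11, 2.80 and 2.95), and Ly86 (2.98, 3.20 and 2.95). The product of Ly86 partners RP105, a receptor found on B cells. The first 4 lay upstream, at 1291, 270, 375 and 283 bp from the TSS, and each had a neighbour with a mean fold enrichment of 7.64 to 12.9. Ly86 was isolated, 2526 bp downstream in an intron.

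The libraries ordered the regions less alike among narrow than among wider regions. Across the 1730 regions, which are not independent replicates and whose range the width limit narrows, Spearman's rho of fold enrichment was 0.647 for replicates 1 and 2, 0.663 for 1 with 3, and 0.680 for 2 with 3. For the wider regions it was 0.886, 0.893 and 0.899. The ratio of the highest to the lowest library had a median of 1.4, and it was at least 2 in 94 regions (5.43%). Replicate 3 held the highest value in 986 regions, replicate 2 in 410 and replicate 1 in 334. The outermost summits of the 3 libraries lay a median of 50 bp apart.

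The largest ratios stood at Btbd10 (3.89, 8.88 and 12.9), the zinc finger gene Zfp867 (4.63, 3.00 and 9.83) and Mcemp1, which encodes a mast cell membrane protein (3.04, 9.59 and 5.65). Each of these was low in at least 1 library, down to 9 fragments at Mcemp1 in replicate 1 and 11 at Zfp867 in replicate 2. The smallest ratios were found at Rbm14, an RNA-binding protein gene (7.36, 7.25 and 7.37), the zinc finger gene Zfp882 (12.6, 12.9 and 12.7) and Rilpl2 (5.18, 5.31 and 5.16). Just inside the width limit, 15 regions were 499 bp wide, with mean fold enrichments from 4.83 to 13.9 and a median of 6.81. Just outside it, 11 regions were 500 bp wide, with 4.59 to 20.97 and a median of 7.20. The first 3 in genome order were at Psap, Dapk3 and Osm inside (4.83, 5.67 and 4.85) and at Igtp, Jarid2 and Cep72 outside (8.94, 6.35 and 20.97).

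Most narrow regions had a summit close to the TSS, on one of its sides and seldom on it. Of the 1730, 1450 (83.8%, Wilson 95% interval 82.0% to 85.5%) had the strongest summit within 500 bp of a TSS. A summit 1 to 250 bp downstream was found in 711 regions (41.1%) and one 250 to 500 bp upstream in 417 (24.1%). Only 178 (10.3%) had it in the 250 bp just upstream or at the TSS. Wider regions were much alike in the share within 500 bp (86.75%) and in the share just upstream or at the TSS (10.3%). They had the summit 1 to 250 bp downstream in 50.6% and 250 to 500 bp upstream in 8.04%. The region overlapped the TSS itself in 532 cases (30.8%, 28.6% to 33.0%), against 68.5% of the wider regions, a comparison that width alone favours. By annotation the summit lay in an intron in 665 regions, outside protein-coding genes in 569, in the untranslated part of a first exon in 252, in a coding exon in 229 and in the untranslated part of a later exon in 15.

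Whether a region stood alone separated the positions. Of the 1730 regions, 798 were isolated and 932 (53.9%, 51.5% to 56.2%) had another region of all 3 libraries within 2.5 kb, here called accompanied. For wider regions the accompanied share was 37.2% (36.1% to 38.3%). Isolated regions had the summit downstream of the TSS in 82.5%, 82.5% and 82.2% of cases in replicates 1, 2 and 3, each library read at its own summit (82.4% ± 0.145, SD, n = 3). For accompanied regions the shares were 35.0%, 35.6% and 34.8% (35.1% ± 0.447). The difference was 47.2 ± 0.362 percentage points. Each library was read in the same united regions, so these SDs cover only where a library places its summit inside a region and are no measure of how far regions would recur in other mice. Accompanied regions are also shaped by the width limit, which keeps the narrow side of a pair, and among wider regions the same difference was 20.9 ± 0.280 points. Over all narrow regions the downstream share was 56.9% ± 0.291 (SD, n = 3), above 50% in 3 of 3 libraries (p = 0.25 in a two-sided exact permutation test that flips signs over libraries, which cannot give a smaller p with 3).

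Isolated narrow regions had the summit downstream of the TSS nearly as often as isolated wider ones. The latter had the summit downstream in 84.1%, 84.0% and 84.1% of cases, and the difference of isolated narrow minus isolated wider regions was -1.67 ± 0.181 percentage points. In overlap with the TSS the same difference was -31.1 points (-34.74 to -27.45), a comparison that again depends on width. Accompanied wider regions were downstream in 63.2% ± 0.220, and the difference of accompanied narrow minus accompanied wider regions was -28.0 ± 0.367 points. This last contrast is likewise not independent of how the regions were chosen.

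**Figure D3:**
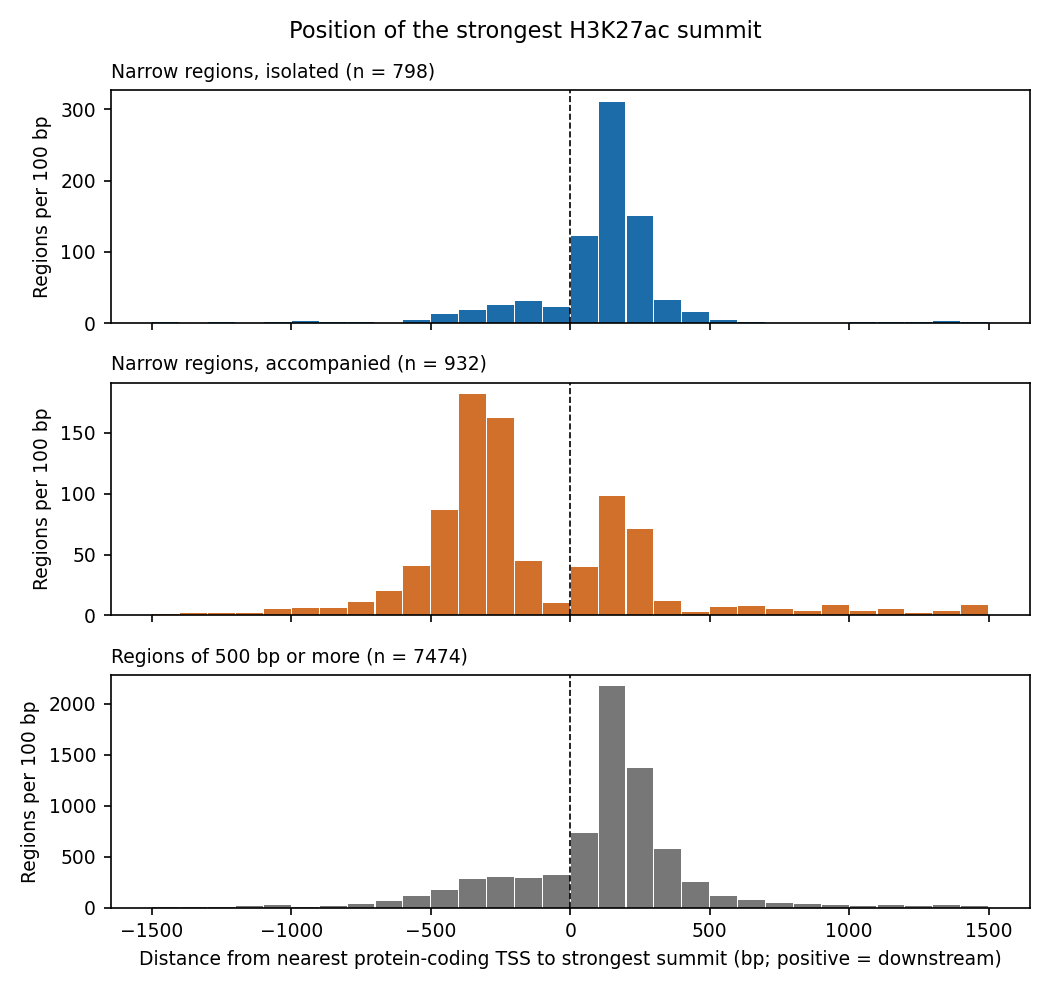
Number of regions per 100 bp (y axis) by the distance from the nearest protein-coding TSS to the strongest summit (x axis, bp, positive downstream), for isolated narrow, accompanied narrow and wider regions; the dashed line is the TSS and distances beyond 1500 bp are not drawn. Isolated narrow regions peak 100 to 200 bp downstream, accompanied ones 300 to 400 bp upstream with a smaller peak downstream.

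The accompanied regions formed pairs across the start. The closest neighbour lay a median of 180.5 bp away (quartiles 116 and 293 bp), was 500 bp or wider in 731 of 932 cases (78.4%) and was assigned to the same gene in 898 (96.4%). Of the 603 accompanied regions upstream of the TSS, 531 (88.1%, 85.2% to 90.4%) had the closest neighbour's summit downstream of the same TSS, and the summits of the pair stood a median of 602 bp apart. The 329 accompanied regions downstream were divided, with the neighbour's summit upstream of the TSS in 173 and downstream in 156. The neighbour had the higher mean fold enrichment in 701 of 932 pairs (75.2%), with medians of 8.65 for neighbours and 5.37 for the narrow regions. Of the 798 isolated regions, 267 (33.5%) had a region of 1 or 2 libraries within 2.5 kb, so that isolation here refers to reproducible regions.

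Start sites of noncoding transcripts were counted next, since divergent transcription from a promoter can produce long noncoding RNA. An annotated long noncoding transcript starting on the opposite strand within 1 kb of the TSS was found for 77 of 798 isolated regions (9.65%, 7.79% to 11.9%) and for 156 of 932 accompanied ones (16.7%, 14.5% to 19.3%). The difference of isolated minus accompanied regions was -7.09 percentage points (-10.2 to -3.90). It is not independent of how the classes were defined. A noncoding start with a separate reproducible region of its own within 2.5 kb would make the narrow region accompanied. How much of the difference comes from this was not tested. The wider regions had such a start in 15.6% (14.8% to 16.4%). These intervals cover counting error over regions and not the spread between mice.

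CpG content depended on where it was read. In the 300 bp around the strongest summit, a window was called CpG-rich at a GC content of at least 50% and a ratio of observed to expected CpG of at least 0.6. Of the narrow promoter regions 56.7% (54.4% to 59.0%) were CpG-rich, against 77.5% (76.5% to 78.4%) of the wider ones, 21.6% of narrow promoter regions in 1 or 2 libraries and 10.9% of narrow reproducible distal regions. Among the narrow promoter regions, isolated ones were CpG-rich in 69.0% (65.8% to 72.2%) and accompanied ones in 46.1% (43.0% to 49.3%).

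Summit windows lie at different distances from the TSS, so the same measures were taken in a fixed window from 250 bp before to 50 bp after the nearest TSS. There the order turned. Promoters of isolated regions were CpG-rich in 66.2% (62.8% to 69.4%) and those of accompanied regions in 78.8% (76.0% to 81.3%), close to the 78.4% of wider regions. The difference of isolated minus accompanied regions was 22.9 percentage points (18.3 to 27.4) in summit windows and -12.6 points (-16.8 to -8.38) in promoter windows. Of 19152 RefSeq promoters of autosomal protein-coding genes, cut in the same way, 47.8% were CpG-rich. Both kinds of narrow region thus stood at promoters that were CpG-rich more often than the RefSeq promoters as a whole.

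The motifs were searched as fixed letters on both strands, in 11 sets named after the factors known to bind them. The TATA box was read as TATAAA, the site of the factor NFY as CCAAT and the GC box of Sp1 as GGGCGG. Sites of 8 letters were CCGGAAGT for ETS factors, TGACGTCA for CREB, GCGCATGC for NRF1, AAGATGGC for YY1 and TTTCGCGC or TTTGGCGC for E2F. The AP-1 site was read as TGACTCA, the GATA site as AGATAA and the RUNX site as TGTGGT, and a match is a description of the letters only. Sets could overlap each other in a window. In the fixed promoter window, the Sp1 letters were found for 66.8% of narrow regions (64.6% to 69.0%), 69.5% of wider ones and 48.3% of RefSeq promoters.

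Between narrow and wider regions, the 95% interval of the difference in the promoter window left out 0 for 4 of the 11 sets, NFY, Sp1, ETS and GATA, with no adjustment for the number of sets. The NFY letters were present for 41.9% of narrow regions (39.6% to 44.2%) and 34.7% of wider ones (33.6% to 35.7%), a difference of 7.25 percentage points (4.71 to 9.83), and in 37.5% of RefSeq promoters. Isolated and accompanied regions held them in 41.5% and 42.3%, with a difference of -0.80 points (-5.44 to 3.87). ETS letters were less frequent at narrow than at wider regions, at 6.53% (5.46% to 7.80%) and 9.07% (8.44% to 9.74%), a difference of -2.54 points (-3.80 to -1.13), with 5.45% of RefSeq promoters. For Sp1 the difference was -2.65 points (-5.13 to -0.23). The interval of the difference for the TATA box between narrow and wider regions (6.19% and 5.41%) reached from -0.39 to 2.11 points, and both shares lay below the 12.1% of RefSeq promoters. GATA letters were found for 5.49% of narrow and 4.27% of wider regions (difference 1.22 points, 0.13 to 2.48) and RUNX letters for 12.5% and 11.1%, against 9.31% and 14.6% of RefSeq promoters. The remaining shares in narrow, wider and RefSeq promoters were 3.24%, 4.04% and 2.37% for CREB, 6.19%, 5.37% and 3.67% for NRF1, 5.09%, 5.69% and 3.09% for YY1, 1.27%, 1.499% and 1.06% for E2F, and 3.12%, 2.93% and 4.66% for AP-1.

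**Figure D4:**
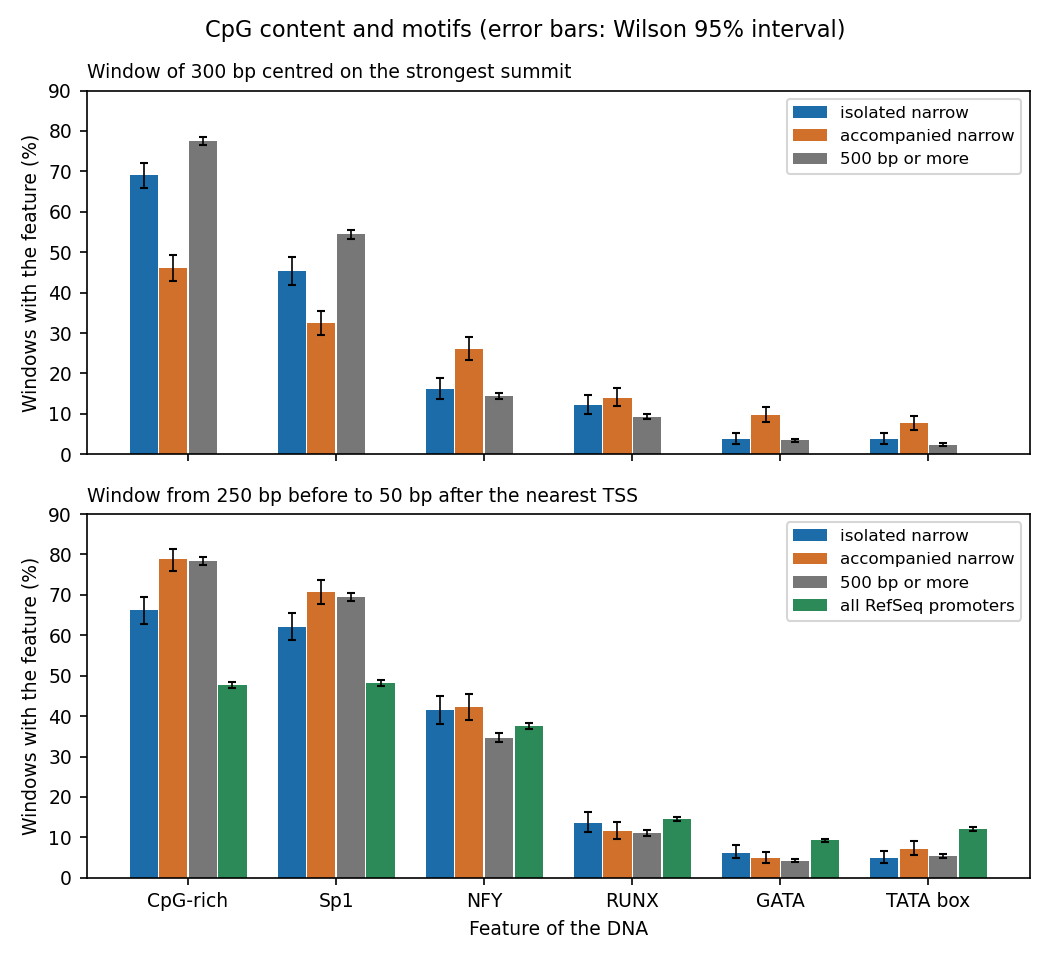
Share of 300 bp windows (%, y axis) that were CpG-rich or held the letters of the Sp1, NFY, RUNX, GATA or TATA box set (x axis). Windows were centred on the summit (top) or ran from 250 bp before to 50 bp after the TSS (bottom). Error bars are Wilson 95% intervals. CpG-rich windows are commoner at isolated than accompanied regions around the summit (69.0% and 46.1%) and less common in the promoter window (66.2% and 78.8%).

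At the level of genes, 748 of the 1611 genes with a narrow region (46.4%, 44.0% to 48.9%) also had a wider one, and for 851 (52.8%) every reproducible promoter region was narrow. The latter make up 4.09% of all autosomal protein-coding genes, whereas 6224 genes (29.9%) had a wider region. Among the 8380 genes with any reproducible promoter region, 10.2% (9.53% to 10.8%) had only narrow ones. A narrow one was found for 19.2% (18.4% to 20.1%) of them. These shares are the background for the gene lists that follow, which are described by their counts. Of genes with any such region, 18.8% of cytosolic and 14.3% of mitochondrial ribosomal protein genes had a narrow one. The share was 21.4% for haematopoietic transcription factor, 19.4% for polycomb, 13.6% for DNA repair and 28.6% for peroxin genes. The 95% interval of each of these list shares held the 19.2%. Solute carrier genes were higher, at 38 of 129 (29.5%, 22.3% to 37.8%), an interval that left it out. So did the interval of the lymphoid markers (66.7%, 20.8% to 93.85%), which rests on 3 genes. No adjustment was made for the number of lists.

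Zfp genes, a large family of zinc finger proteins that includes many repressors of transposable elements, held the most narrow regions of the lists examined. A narrow region was assigned to 55 of 385 (14.3%, 11.1% to 18.1%, against the background of 7.74%). Zfp genes had a reproducible promoter region of some width in 242 cases, and of these 22.7% (17.9% to 28.4%) had a narrow one, near the 19.2% of all genes with such a region. In 45 of the 242 (18.6%, 14.2% to 24.0%) there were only narrow ones, against 10.2% of all genes with any reproducible promoter region. The family contributed 59 regions, of which 43 (72.9%, 60.4% to 82.6%) were isolated and 39 both isolated and downstream of the TSS, against 46.1% isolated among all narrow regions. Zfp433 had fold enrichments of 15.5, 18.6 and 19.1 at 61 bp downstream, Zfp619 had 13.7, 15.6 and 17.6 at 80 bp downstream, and Zfp882 had 12.6, 12.9 and 12.7 at 68 bp downstream. All 3 stood above the median of the narrow regions in each library. The family as a whole did not, with a median of the mean fold enrichment of 5.55 against 5.49 for all narrow regions.

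Genes of mitochondrial ribosomal proteins, which translate the transcripts of the mitochondrial genome, had mostly isolated narrow regions, and those of cytosolic ribosomal proteins mostly accompanied ones. The intervals of the 2 isolated shares did not overlap. They cover counting error over 9 and 13 regions, with no adjustment for the number of lists, and a difference between the lists was not tested. Of 78 mitochondrial ribosomal protein genes 9 had a narrow region (11.5%), and 7 of the 9 regions were isolated (77.8%, 45.3% to 93.7%, against 46.1% of all narrow regions, which this interval just holds) and downstream of the TSS, among them Mrps18a (13.8, 11.8 and 16.0), Mrpl15 (9.73, 11.3 and 10.99) and Mrps2 (8.54, 7.94 and 13.0). Of 75 cytosolic ribosomal protein genes 13 had a narrow region (17.3%), 58 had a wider one and 1 had only a narrow one. That 1 gene is 1.45% (0.26% to 7.76%) of the 69 with any reproducible promoter region, against 10.2% of all such genes. There 12 of 13 narrow regions were accompanied (isolated share 7.69%, 1.37% to 33.3%) and 10 of these lay upstream, as at Rps7 (8.29, 6.75 and 10.1, 265 bp upstream), Rps6 (6.48, 7.50 and 6.88, 347 bp upstream) and Rps13 (7.77, 5.50 and 6.88, 306 bp upstream). Rpl38 was an exception among them, with 12.1, 11.6 and 15.2 at 274 bp downstream, and the isolated region belonged to Rpl7l1, a ribosomal protein-like gene.

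The respiratory chain and ATP synthase list had 9 of 12 regions accompanied, 8 of them upstream, and its isolated share of 25% had an interval (8.89% to 53.2%) that held the 46.1% of all narrow regions. Cox7a2, a subunit of cytochrome c oxidase, had 7.25, 7.32 and 9.77 at 155 bp upstream, and Ndufaf6, an assembly factor of complex I, had an isolated region with 6.14, 8.60 and 10.4 at 186 bp downstream. Vacuolar protein sorting genes, which act in traffic to endosomes and lysosomes, had 5 of 6 regions isolated and downstream (isolated share 83.3%, 43.7% to 97.0%, an interval that also held the 46.1%), the strongest at Vps28 (9.36, 9.06 and 10.5). Among 17 peroxin genes 14 had a reproducible promoter region, and 4 of these had only narrow ones, with Pex7 the strongest. That share is 28.6% (11.7% to 54.65%), against 10.2% of all genes with such a region, with no adjustment for the number of lists. Among 1128 olfactory receptor genes 0 had a reproducible promoter region of any width.

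**Figure D5:**
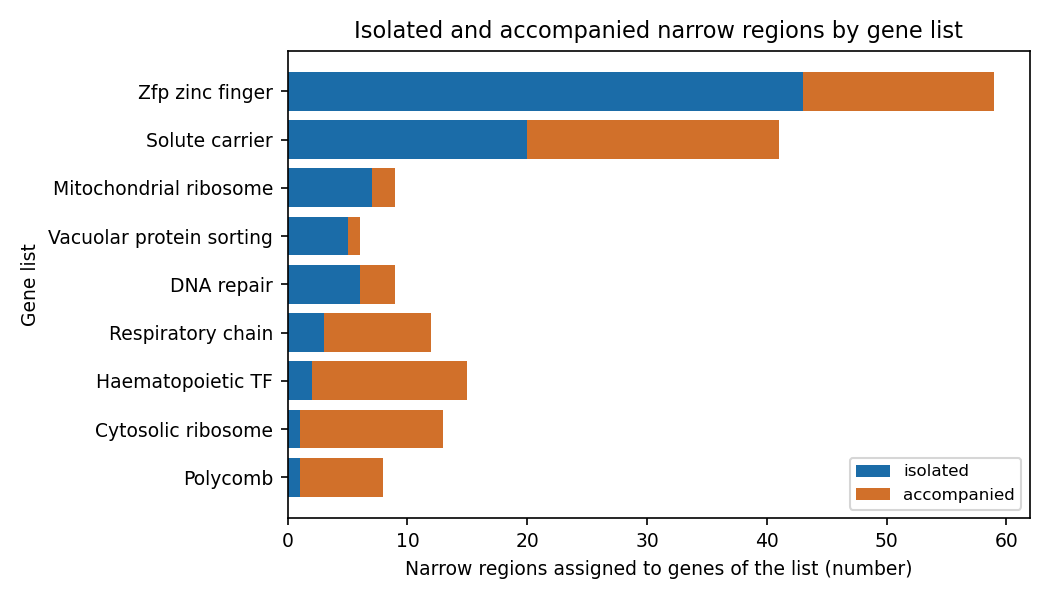
Number of narrow regions (x axis) assigned to genes of 9 lists (y axis), divided into isolated and accompanied ones. Zfp genes hold 43 isolated and 16 accompanied regions, mitochondrial ribosomal proteins 7 and 2, and cytosolic ribosomal proteins 1 and 12.

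Transcription factor genes of haematopoiesis had narrow regions mostly beside another reproducible region. Of 87 such genes 15 had a narrow region (17.2%, 10.7% to 26.5%, against 7.74% of all genes) and 66 had a wider one, against 29.9%. Among the 70 with any reproducible promoter region, 21.4% had a narrow one, near the 19.2% of all such genes. Only narrow ones were found for 2 of the 70 (2.86%, 0.79% to 9.83%), against 10.2%. Of the 15 narrow regions 13 were accompanied (isolated share 13.3%, 3.74% to 37.9%), against 46.1% isolated among all narrow regions. The strongest was at Tcf3, which encodes the E2A proteins, with 15.4, 10.8 and 17.6 at 213 bp upstream and a neighbour of 835 bp at 224 bp downstream. Hoxa7, a homeobox gene active in stem cells and progenitors, had 8.10, 7.40 and 6.23 at 281 bp downstream. The values at Lyl1 (6.25, 4.72 and 8.57), Mef2c (5.18, 5.56 and 8.02), Gfi1 (4.09, 5.26 and 8.19) and Klf2 (5.75, 6.11 and 5.46) were near the median of the narrow regions. Tcf4, an E protein gene, had 5.72, 6.58 and 6.39, and Ets2 had 4.78, 7.61 and 7.81 in an intron 1676 bp downstream. Ets1 (7.10, 7.28 and 5.23, 353 bp upstream of a transcript start and within an intron of the gene) and Hlf (4.20, 5.50 and 4.18) were the isolated regions of this list.

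Polycomb genes, whose products repress transcription and include partners of Bcor, held 8 narrow regions. Of 42 genes 7 had a narrow region, 32 a wider one and 2 only narrow ones. The last make up 5.56% (1.54% to 18.1%) of the 36 with any reproducible promoter region, against 10.2% of all such genes. Of the 8 regions 7 were accompanied, and the interval of the isolated share (2.24% to 47.1%) held the 46.1% of all narrow regions. Rybp, a subunit of the variant complexes that ubiquitinate H2A, had 5.44, 8.25 and 7.62 at 301 bp upstream beside a region of 1049 bp with a mean of 20.7. Cbx8, a chromobox subunit of polycomb repressive complex 1, had 7.10, 5.31 and 8.91 at 184 bp downstream in a coding exon. Mga, a subunit of the variant complex that binds E-boxes and E2F sites, had 5.18, 5.20 and 6.69 at 237 bp upstream.

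DNA repair genes had 6 of 9 regions isolated, a share whose interval (35.4% to 87.9%) held the 46.1% of all narrow regions. Of 83 genes 9 had a narrow region (10.8%, 5.81% to 19.3%), 39 a wider one and 6 only narrow ones. These 6 are 9.09% (4.23% to 18.4%) of the 66 with any reproducible promoter region, near the 10.2% of all such genes. Xrcc2, a gene of homologous recombination, had 10.2, 11.3 and 11.7 at 126 bp downstream, and Fancl, the ubiquitin ligase of the Fanconi core complex, had 9.56, 11.4 and 10.2 at 135 bp downstream, both isolated and overlapping the TSS. Parp1 had 7.19, 6.39 and 8.19, Dclre1c, which encodes the Artemis nuclease, had 5.19, 7.61 and 7.99, and Ung, the uracil glycosylase gene, had 4.26, 7.84 and 7.71. At Tdg, a thymine glycosylase gene, the region was accompanied and upstream, with 7.30, 9.12 and 12.8 beside a neighbour whose mean was 23.6. The same held for the helicase gene Blm, with 3.52, 6.801 and 7.54 beside a neighbour at 17.4, while Slx4, a nuclease scaffold gene, had 8.03, 4.20 and 8.36 at 216 bp downstream.

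Of the 14 genes that mark progenitors of the myeloid lineage, 9 had a wider region, 4 had a narrow one and 3 had only narrow ones. With 12 of the 14 having any reproducible promoter region, the only-narrow share was 25% (8.89% to 53.2%), an interval that held the 10.2% of all such genes. The 4 narrow regions were weak. Cd34, a surface glycoprotein of progenitors, had 4.19, 4.34 and 6.54 at 237 bp downstream, Csf1r, the receptor of macrophage colony-stimulating factor, had 4.78, 4.30 and 4.23 at 2191 bp downstream, and Prtn3, a granule protease gene, had 4.28, 5.13 and 5.01 at 1969 bp upstream. Runx1 had 2.71, 4.09 and 3.21 at 412 bp upstream of a start that also had a neighbouring region. Among 39 cytokine receptor genes, Ifnar2 (3.74, 3.94 and 3.92) and Il6ra (3.63, 4.41 and 5.79) joined Csf1r, and among 28 granule protein genes the region at Prtn3 stood alone. These 6 values rested on 11 to 22 fragments at the summit in each library.

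Several genes held more than 1 narrow region, in all 112 of 1611 (6.95%). Zfand4, a zinc finger gene, had 4, with means of 9.83 ± 2.20 at 270 bp upstream, 10.6 ± 1.35 at 168 bp downstream, 5.38 ± 0.937 at 2243 bp downstream and 4.35 ± 0.194 (SD, n = 3 each) downstream of another transcript start. Ppp2r5c, a regulatory subunit of protein phosphatase 2A, had 3, of which the upstream one at 330 bp had 11.2, 11.6 and 14.6 and the downstream one at 150 bp had 9.13, 9.72 and 9.83. Yju2, a splicing factor gene, Cic, which encodes the repressor capicua, and the RNA helicase gene Znfx1 also had 3 each. No wider region was assigned to Zfand4, Yju2 or Znfx1, and the strongest region had a mean of 7.29 ± 1.501 at Yju2 and 11.8 ± 2.86 at Znfx1 (SD, n = 3).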

How the data were processed

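ChIP-seq peak lists for H3K27ac in KL cells were analysed for 3 libraries, which the methods of the study draw from 3 mice. Reads were mapped by the authors to GRCm38 with bowtie2, and after removal of duplicates each library went through MACS2 on its own (2.1.1 per the submitters' processing notes, which also name cutadapt 1.7, FastQC and deepTools 2.5.3). Which control and which settings MACS2 was run with is not given in the sources used here. The deposited fold enrichment is a ratio of the summit's fragments to the background around it, taken inside 1 library and without scaling to the others. The −log10 p-value and −log10 q-value are the authors' own, and the deposited score was not used.

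Intervals were united from an overlap of 1 bp, with repeated intervals counted once. TSSs were the 52092 starts of protein-coding transcripts in GENCODE M21, and coordinates are counted from 1. Fragments and depth were recovered by solving the fold enrichment and p-value of each row, which succeeded in 100% of rows, with a fragment length of 200 bp taken from the shortest peaks. Both assume that MACS2 added 1 to the fragments and to the background. The depth also assumes its built-in mouse genome size of 1.87e9 bp and takes the lowest backgrounds as the genome-wide one. No molecular identifiers were used. Wilson 95% intervals cover counting error over regions or genes only and not the spread between mice, and neighbouring regions are not independent. Intervals of differences combine the Wilson limits of both shares. Promoter sequences were taken from RefSeq (GRCm38.p6), of which 19152 windows matched an autosomal gene symbol. Regions were classified and fragments recovered correctly in simulated peaks. Calculations used Python 3.11.15, pandas 2.3.3, scipy 1.17.1 and pysam 0.24.0.

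The regions, gene lists and classes were chosen with earlier results of these data known, and the division into isolated and accompanied regions, the 2 upstream sequences and the fixed promoter window were chosen after seeing values. The regions named were the 10 with the highest and 5 with the lowest mean fold enrichment, the 3 with the largest and 3 with the smallest ratio between libraries, the 3 on each side of the width limit, up to 20 at listed blood, polycomb and repair genes, and the 5 genes with the most regions. Zfp433, the ribosomal, respiratory chain and Vps examples, Hlf and the regions at marker and receptor genes were named after their values were seen. Sequence windows with more than 30 bases of annotated exon were passed over. A stricter q threshold, other widths, TSS sets and overlaps, and leaving out each library were tried.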

Additional observations from a re-analysis of the deposited data

How the results depend on the processing

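No paired analysis was possible because the 3 libraries belong to 1 group. The direction of the downstream share over all narrow regions against 50%, and of the difference in downstream share between isolated and accompanied regions, was kept under all alternatives run, the latter between 39.3 and 53.3 percentage points in alternatives chosen after seeing the data. Depth limits the regions to summits of at least 8 fragments, and the width of a united region grows with the number of libraries and their depth, so the number of narrow regions depends on each threshold. A width limit of 400 bp gave 742 regions and 712 genes, with 58.4% accompanied and 54.99% CpG-rich, and a limit of 600 bp gave 2756 regions and 2476 genes, with 51.1% accompanied and 59.7% CpG-rich. With a −log10 q of at least 5 there were 978 regions and 948 genes, 43.7% accompanied, 66.8% CpG-rich and a median fold enrichment of 6.84. The accompanied share was 49.8% when the peaks of a library had to cover at least 50% of the region, 56.7% with gene pairs kept and 49.9% within 1 kb. The CpG-rich share was 59.8% with a TSS within 1 kb, 59.6% with 1 TSS a gene, 57.6% when the peaks of a library had to cover at least 50% of the region, 57.5% with gene pairs kept and 46.5% under the stricter limits. Leaving out each replicate in turn gave 2648 to 2779 regions, the most without replicate 1, since a peak in only 2 libraries was then required. The corresponding ranges were 2350 to 2443 genes, 56.7% to 59.3% accompanied, 51.3% to 54.8% CpG-rich, a median fold enrichment of 4.98 to 5.39 and a downstream share of 57.1% to 58.8%. Apart from the construction of each alternative, the cause of these shifts was not tested.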

Other observations

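The rule above leaves out the X chromosome, which carries the floxed gene and is present once in these male cells. By the same conditions 58 of 518 united regions on X (11.2%) were narrow, reproducible and close to a promoter, against 5.08% on chromosomes 1 to 19. Their median of the mean fold enrichment was 5.75, 30 of the 58 were isolated and 37 had the summit downstream of the TSS. These are values of 1 chromosome in 3 libraries, and their difference from the autosomes was not tested.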
